A study of Margaritifera margaritifera with 32 samples.

Results

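The comparison set 7 middle-aged against 7 young freshwater pearl mussels (Margaritifera margaritifera) from the site of the Dronne River that lies upstream of a dump. These 14 animals of the series' 32 were chosen by their labels for site and age class, not by measured values. The comparison itself was chosen with earlier results of these data known. The middle-aged animals comprised 4 of 2009 (replicates 1 to 4) and 3 of 2010 (replicates 5 to 7), and the young ones 3 of 2009 (replicates 1 to 3) and 4 of 2010 (replicates 4 to 7). Each library held the kidney RNA of 1 animal. The labels give the age classes without years of life, and name no treatment or genotype. Also used were 2 old upstream animals, and downstream 4 middle-aged, 3 young and 9 old animals. The series as titled deals with contamination by trace metals, the upstream animals are the ones above the dump, and the question here is which kidney transcripts differed with age class among them.

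Bivalves have no antibodies and rely on innate defence, in which circulating cells and epithelia make antimicrobial peptides, lysozymes and nitric oxide. Guanylate-binding proteins and viperin are part of the antiviral defence of vertebrates, and genes with these names are found in molluscs. The kidney of a bivalve reabsorbs solutes and is a main site of metal storage.

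Total counts were between 70.9 and 95.7 M (mega, the SI prefix) in the middle-aged libraries and between 64.7 and 175 M in the young ones, with means of 80.5 ± 10.7 M and 92.1 ± 38.5 M (SD, n = 7 per class; exact two-sided permutation p = 0.636, and 0.699 after Benjamini-Hochberg adjustment over 4 library measures). Of the 51392 contigs in the table, 31435 are only numbered, 15587 have a LOC identifier, 2958 have a locus tag of another form and 1412 bear a gene or protein name. The 3 epithelial markers CUBN and LRP2 (endocytic receptors of the vertebrate kidney tubule) and NHRF1 were detected in all 14 animals, summing to 10.3 to 46.7 CPM (counts scaled to a library size common to all animals) in middle-aged and 8.91 to 29.9 CPM in young animals. Of these, LRP2 had medians of 2.68 CPM in middle-aged and 0.293 CPM in young animals, a log2 difference of 2.66 (edgeR adjusted p = 0.277). CUBN and NHRF1 differed by -0.09 and -0.14. Young replicates 2, 5 and 7 stood apart on the first principal component (229, 180 and 221, against at most 59.1 elsewhere), and middle-aged replicates 2 and 3 on the second (-184 and -177). In those 3 young animals the 18 muscle contigs summed to 2945, 5506 and 4736 CPM and contigs with protist locus tags to 14652, 6850 and 1950 CPM. The other 4 young animals had at most 916 and 981 CPM of these, and the middle-aged animals at most 1999 and 826 CPM. Age class also moved with sequencing lane, as read from the last part of the library names. Lane 3 held 3 middle-aged animals and no young one, and lane 2 held 4 young animals and no middle-aged one. Lane 1 held 1 middle-aged and 2 young animals, and lane 4 held 3 and 1.

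In middle-aged kidneys, 94 contigs were higher and 6 lower than in young kidneys at a Benjamini-Hochberg adjusted p under 0.05 (edgeR quasi-likelihood test with year as a term, 50659 contigs tested). The 100 contigs are 0.197% of those tested, with 0.186% higher and 0.0118% lower. Only 4 of them carry a gene name, and all 4 were higher in middle-aged animals: HYDMA, NOS, CRADD.4.8 and GBP1. The remaining 96 comprise 45 numbered contigs, 42 with a LOC identifier and 9 with a further kind of tag, and the files do not pair these with gene names. At an unadjusted p under 0.05, 4013 contigs were higher and 4109 lower, so the excess of higher contigs was seen among the called ones and not among these. The median log2 difference over all tested contigs was -0.02.

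HYDMA, named after hydramacin, an antimicrobial peptide first described in the polyp Hydra, had the largest difference of the 4. Its level was 0.435, 10.0, 6.02, 6.72, 4.21, 1.6 and 0.535 CPM in middle-aged replicates 1 to 7, and 0.238, 0, 0.113, 0.0766, 0, 0.158 and 0.0281 CPM in young replicates 1 to 7. Every middle-aged animal was above every young one, and the contig had no count in young replicates 2 and 5, where a count of 0 allows up to 0.0495 and 0.0394 CPM (3 counts, counting error only). The log2 difference was 5.26 ± 0.86 (SE derived from the F statistic, n = 7 per class, edgeR adjusted p = 0.0356). The young class rests on few reads here, since the other 5 young libraries held between 2 and 41 counts of this contig.

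NOS, nitric oxide synthase, makes the gas nitric oxide, which blood cells of molluscs use against microbes. It stood at 1.5, 4.66, 10.8, 7.46, 4.79, 0.435 and 1.24 CPM in the 7 middle-aged animals, against 0.651, 0.066, 0.327, 0.268, 0.079, 0.360 and 0.211 CPM in the 7 young ones. The classes overlapped in 1 animal, middle-aged replicate 6, which was below young replicate 1. The log2 difference was 3.68 ± 0.66 (edgeR adjusted p = 0.0446).

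CRADD.4.8 is the fourth of 8 contigs named after CRADD, an adapter with a death domain that binds caspases in mammals. Its level was 3.6, 8.35, 5.76, 3.70, 3.21, 2.99 and 2.92 CPM in middle-aged animals and 1.76, 1.14, 2.22, 0.613, 1.55, 1.69 and 1.25 CPM in young animals, with no overlap. The log2 difference was 1.47 ± 0.27 (edgeR adjusted p = 0.0459). The other 7 CRADD contigs had log2 differences between -0.25 and 0.32 and adjusted p-values from 0.46 up. How reads that match several of these contigs were shared among them is not given in the sources used here, so the value of any 1 of them is uncertain.

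GBP1 is named after a guanylate-binding protein, a GTPase that interferon induces in vertebrates. It had 8.76, 44.7, 19.2, 14.4, 4.61, 4.94 and 2.17 CPM in middle-aged animals, against 4.71, 2.85, 3.27, 0.791, 1.54, 1.02 and 1.83 CPM in young animals. Of the 7 middle-aged animals, 5 were above every young one, and all 7 were above the young median of 1.83 CPM. The log2 difference was 2.12 ± 0.39 (edgeR adjusted p = 0.049). Under 28 alternatives GBP1 lost its call in 24, RLE in place of TMM scaling included, CRADD.4.8 in 19, NOS in 20 of 27 and HYDMA in 17 of 27.

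**Figure D1:**
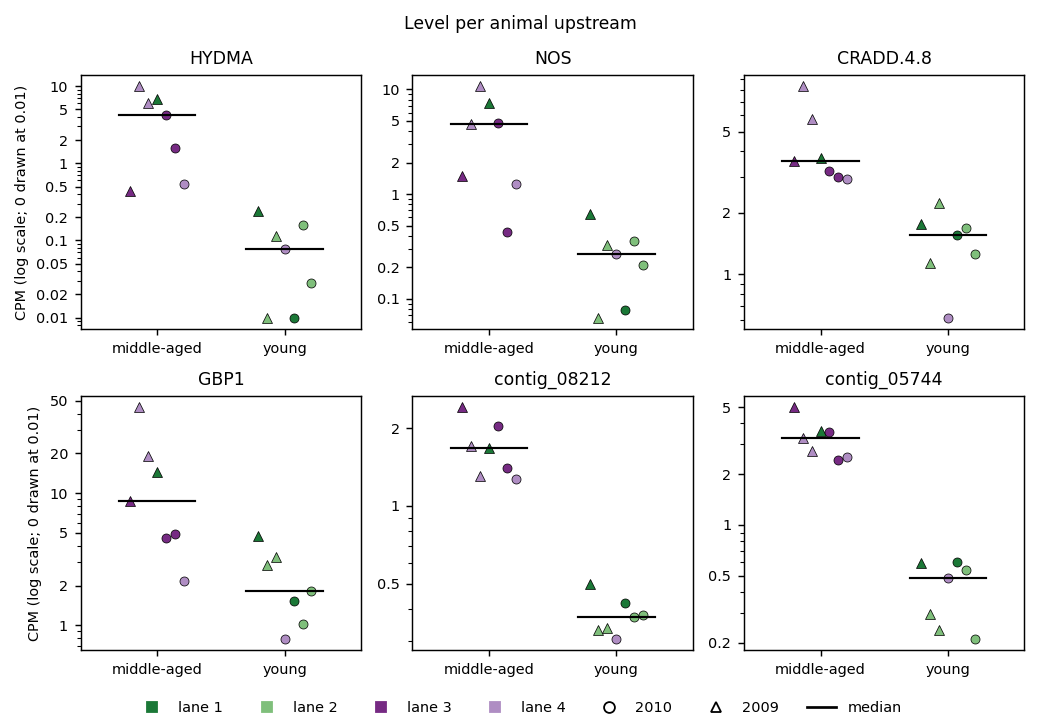
Level of the 4 named contigs called in the comparison and of 2 numbered contigs, in CPM on a log axis, with 1 point per upstream animal (colour, sequencing lane; shape, year; line, median; a level of 0 is drawn at 0.01). HYDMA, CRADD.4.8, contig_08212 and contig_05744 show no overlap between the 7 middle-aged and the 7 young animals, whereas NOS and GBP1 overlap.

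HYDMA, NOS and CRADD.4.8 average under 5 CPM in the middle-aged class and are described because they are named and called, a choice made after their values were seen. Among all contigs, the numbered ones held the smallest p-values. For contig_08212 the level was 2.41, 1.71, 1.31, 1.68, 2.04, 1.40 and 1.27 CPM in middle-aged animals and 0.500, 0.330, 0.339, 0.306, 0.421, 0.372 and 0.380 CPM in young animals. Even the lowest middle-aged animal stood well above the highest young one. Its log2 difference was 2.15 ± 0.20 (edgeR adjusted p = 0.00251). For contig_05744 the middle-aged animals lay between 2.41 and 4.99 CPM and the young ones between 0.211 and 0.605 CPM, a log2 difference of 2.95 ± 0.30 (edgeR adjusted p = 0.00283). These were the 2 contigs called in every one of the 14 fits that left out 1 animal.

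The 94 higher contigs had a median log2 difference of 2.60, and 65 of them differed by more than 2. In 60 of the 94 all 7 middle-aged animals were above all 7 young ones, an order that 0.373% of all tested contigs showed. The choice of the 94 on these animals favours that order. Their median level was 5.35 CPM in middle-aged and 1.04 CPM in young animals, against 3.96 and 4.06 CPM over all tested contigs. Among the 6 lower contigs, 3 had all middle-aged animals below all young ones (0.328% of all tested contigs), which their choice on these animals likewise favours. LOC106872908 had 3.01 to 11.8 CPM (median 7.80) in middle-aged and 16.4 to 43.3 CPM (median 23.0) in young animals, a log2 difference of -1.76 ± 0.29 (edgeR adjusted p = 0.0356) with no overlap. LOC105343707 had 9.21 to 16.8 CPM in middle-aged and 16.0 to 31.9 CPM in young animals and differed by -0.95 ± 0.16 (edgeR adjusted p = 0.0356), with 1 middle-aged animal above the lowest young one.

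The calls depended on single libraries. Leaving out 1 animal at a time gave between 2 and 444 called contigs. Without middle-aged replicate 5, or without any 1 of young replicates 2, 3, 4 and 7, only 2 contigs were called. Without middle-aged replicate 3 there were 3, without young replicate 5 there were 6, and without middle-aged replicate 1, the animal with the lowest HYDMA of its class, there were 444, among them all 100. NOS, CRADD.4.8 and GBP1 were each called in 2 of the 14 fits and HYDMA in 5. The log2 difference of HYDMA stayed between 4.89 and 5.63 in these fits, that of NOS between 3.19 and 3.93, that of CRADD.4.8 between 1.30 and 1.56 and that of GBP1 between 1.78 and 2.29. Without young replicates 2, 5 and 7 together, 11 contigs were called, all higher, of which 3 were among the 100. The named ones were then plg.1.3 and plg.2.3, named after plasminogen, with log2 differences of 2.47 and 2.53 (edgeR adjusted p = 0.0322 and 0.0251), against 0.31 and 0.45 with all 14 animals.

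With lane added as a term, no contig was called (edgeR; 5056 contigs had an unadjusted p under 0.05). The log2 differences were then 5.53 ± 1.58 for HYDMA, 4.00 ± 1.17 for NOS, 1.91 ± 0.55 for CRADD.4.8 and 2.40 ± 0.79 for GBP1, each with a larger error than without the term. Their unadjusted p-values were 0.00549, 0.00615, 0.00534 and 0.0113. Of the 94 higher contigs, 87 kept a positive difference with an unadjusted p under 0.05, where 4.55% of all contigs had this, although the 94 were chosen on the same animals. In lanes 1 and 4, which hold both classes, the middle-aged animal or animals were above every young animal of the same lane in 88 of the 94, an order that 14.4% of all tested contigs showed and that the choice of the 94 on these animals favours. In lane 4 contig_08212 had 1.71, 1.31 and 1.27 CPM in the 3 middle-aged animals and 0.306 CPM in the young one, and in lane 1 it had 1.68 CPM in the middle-aged animal and 0.500 and 0.421 CPM in the 2 young ones.

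**Figure D2:**
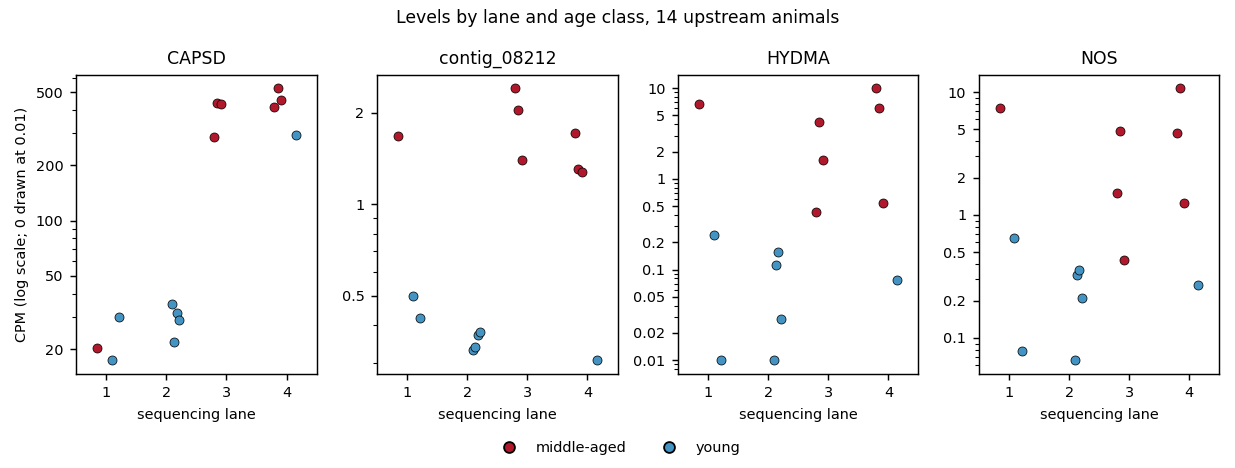
Level of CAPSD, contig_08212, HYDMA and NOS in CPM (log axis; a level of 0 is drawn at 0.01) by sequencing lane, with 1 point per upstream animal, middle-aged drawn left of young within a lane. CAPSD is high in lanes 3 and 4, which hold only 1 young animal, in lane 4. Inside lanes 1 and 4, contig_08212 and HYDMA separate the classes, as they must, since both separate all the animals drawn. The part of the lane is not tested by this.

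Over all 32 animals of both sites and 3 age classes, levels of 4 called contigs also moved with the lane. Lanes 3 and 4 held most of the middle-aged animals and lanes 1 and 2 most of the young ones, so lane and age class cannot be told apart in these values. In the 16 libraries of lanes 3 and 4, against the 16 of lanes 1 and 2, median levels were 4.39 against 0.198 CPM for HYDMA, 4.32 against 0.455 CPM for NOS, 3.26 against 0.770 CPM for contig_05744 and 1.68 against 0.674 CPM for contig_08212. The ranges overlapped for all 4, and the part of the lane in their differences with age class was not tested beyond the values above.

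A set of contigs separated the lanes without overlap. VGA was among the named contigs of smallest p, at 18.4 to 461 CPM (median 377) in middle-aged and 14.7 to 250 CPM (median 25.2) in young animals, a log2 difference of 2.99 ± 0.75 (edgeR adjusted p = 0.122) that was 0.53 ± 0.38 with the lane term. VGA, H and CAPSD are names used for proteins of bacteriophages, and phage DNA is a common control in Illumina runs. The last 2 were added after their values were seen. Over all 32 animals CAPSD lay between 168 and 648 CPM in the 16 libraries of lanes 3 and 4, and between 14.5 and 63.3 CPM in the 16 of lanes 1 and 2, with no overlap. Where these reads came from was not tested.

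The named contigs next in order of p on the higher side included further ones named after defence proteins, and none of them was called. NEURM.1.2 and NEURM.2.2, named after neuromacin, an antimicrobial peptide of leeches from the same family as hydramacin, had log2 differences of 2.80 ± 0.58 and 2.74 ± 0.61 (edgeR adjusted p = 0.0677 and 0.0827). NEURM.1.2 had 4.59, 122, 45.2, 48.6, 25.1, 14.8 and 24.7 CPM in middle-aged animals, against 7.15, 2.44, 4.93, 5.28, 5.88, 5.90 and 3.73 CPM in young ones. Middle-aged replicate 1 lay inside the young range and the other 6 above it. Pik3ap1, an adapter that links Toll-like receptors to phosphoinositide kinase in mammals, had 1.81 to 19.6 CPM (median 4.78) in middle-aged and 0.643 to 2.18 CPM (median 0.957) in young animals, with a log2 difference of 2.24 ± 0.46 (edgeR adjusted p = 0.0658). LYS1.2.3, a lysozyme contig added after its values were seen, averaged 51.4 ± 44.5 CPM in middle-aged and 11.4 ± 3.90 CPM in young animals (SD, n = 7 each), a log2 difference of 1.83 ± 0.48 (edgeR adjusted p = 0.129). The other 3 lysozyme contigs had smaller estimates with larger errors, at 1.28 ± 0.90 for LYS1.3.3, 0.65 ± 0.94 for LYS1.1.3 and 0.45 ± 0.87 for LYS.2.2. The estimates of LYS1.1.3 and LYS.2.2 in 2010 alone were -1.28 and -1.32. Over both years the big defensin BDEF was the only negative one of the antimicrobial contigs given here, at -6.33. It turned positive without young replicates 2, 5 and 7. The signs of LYS1.1.3 and LYS.2.2 thus depended on the year, and that of BDEF on the animals kept. TNFL6, named after the mammalian Fas ligand and likewise added, averaged 4.10 ± 3.56 CPM in middle-aged and 0.904 ± 0.369 CPM in young animals, with a log2 difference of 1.84 ± 0.49 (edgeR adjusted p = 0.133).

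The antiviral list held 5 contigs, 1 of them called (GBP1) and 4 higher at an unadjusted p under 0.05, where 7.92% of all contigs were. Its median log2 difference was 2.08, against -0.02 over all contigs. GBP3, a second guanylate-binding protein, had 5.04, 27.8, 11.9, 9.02, 3.47, 3.00 and 2.15 CPM in middle-aged and 2.23, 2.13, 2.11, 1.19, 1.34, 1.32 and 1.77 CPM in young animals, and its log2 difference was 1.86 ± 0.40 (edgeR adjusted p = 0.0748). Only middle-aged replicate 7 lay inside the young range. RSAD2.1.2 and RSAD2.2.2, named after viperin, which blocks virus replication in vertebrates, differed by 2.08 ± 0.54 and 2.16 ± 0.54 (edgeR adjusted p = 0.132 and 0.123). In middle-aged replicate 2 they reached 75.2 and 67.8 CPM, against at most 5.29 and 4.25 CPM in young animals. The fifth member, GBP6, had a log2 difference of 0.16 ± 0.65.

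In a set of 12 contigs picked after their values were seen, HYDMA, NOS, CRADD.4.8, GBP1, GBP3, both RSAD2, both NEURM, LYS1.2.3, Pik3ap1 and TNFL6, 11 had replicates 2, 3 and 4, all of 2009, as their 3 highest middle-aged animals. Among all tested contigs 12.7% had these 3 animals on top, and 25 of the 94 called higher did, so the count describes the set as picked and no more. NOS was the exception, with replicates 3, 4 and 5. In contrast, contig_08212 and contig_05744 were highest in replicate 1. Replicates 2 and 3 are the libraries that stood apart on the second component. Without these 2 libraries 3 contigs were called, none of them named, and the log2 differences were 4.87 for HYDMA, 3.40 for NOS, 1.19 for CRADD.4.8, 1.63 for GBP1, 1.32 for GBP3 and 2.22 for NEURM.1.2. The 3 hemocyte integrin contigs (ITB) summed to 26.8 to 63.1 CPM in middle-aged and 18.2 to 46.9 CPM in young animals, none of them with a difference past the threshold. In bulk kidney, more blood cells and more transcript per cell cannot be told apart, and the part of cell makeup in these differences was not tested.

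A further 4 named contigs filled the higher side without being called. Fbxw5_0, an F-box protein of ubiquitin ligases, had 3.11 to 14.2 CPM in middle-aged and 1.42 to 3.10 CPM in young animals, with a log2 difference of 1.51 ± 0.32 (edgeR adjusted p = 0.0707), and 1.06 ± 0.52 with the lane term. GPX5, a glutathione peroxidase that removes peroxides, averaged 12.7 ± 8.03 CPM in middle-aged and 3.32 ± 1.93 CPM in young animals, a log2 difference of 1.79 ± 0.39 (edgeR adjusted p = 0.0748), and 1.08 ± 0.75 with the lane term. The calmodulin contigs CALM.8.20 and CALM.19.20, calcium sensors, differed by 1.23 ± 0.27 and 0.95 ± 0.21 (edgeR adjusted p = 0.0819 and 0.0807).

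On the lower side no named contig was called. CREBL2, a transcription factor of the basic leucine zipper type, had 5.22 to 12.1 CPM (median 9.24) in middle-aged and 9.95 to 21.0 CPM (median 15.7) in young animals, with a log2 difference of -0.87 ± 0.20 (edgeR adjusted p = 0.0914). EFCAB14, an EF-hand protein, had 2.24 to 6.48 CPM and 6.60 to 9.32 CPM in the same order, with no overlap, and differed by -0.92 ± 0.21 (edgeR adjusted p = 0.0977). SLC20A2, a sodium-dependent phosphate transporter, averaged 34.5 ± 11.1 CPM in middle-aged and 73.8 ± 26.1 CPM in young animals, a log2 difference of -1.06 ± 0.29 (edgeR adjusted p = 0.142). NALD2, named after a peptidase that cleaves acidic dipeptides, averaged 2.19 ± 1.32 CPM and 6.71 ± 3.72 CPM, and its difference of -1.49 ± 0.43 (edgeR adjusted p = 0.162) was -0.39 ± 0.50 with the lane term. The remaining 6 of the lower 10 were TGFR1 (a receptor of the TGF-beta family), MSRB2.2.2 (a methionine sulfoxide reductase), hip1r (an endocytic adapter), KLC (kinesin light chain), DIAP1 (an inhibitor of apoptosis) and GLT11 (an enzyme that adds sugars to proteins). Their log2 differences were between -1.10 (DIAP1) and -0.58 (TGFR1), with adjusted p-values from 0.129 to 0.176.

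**Figure D3:**
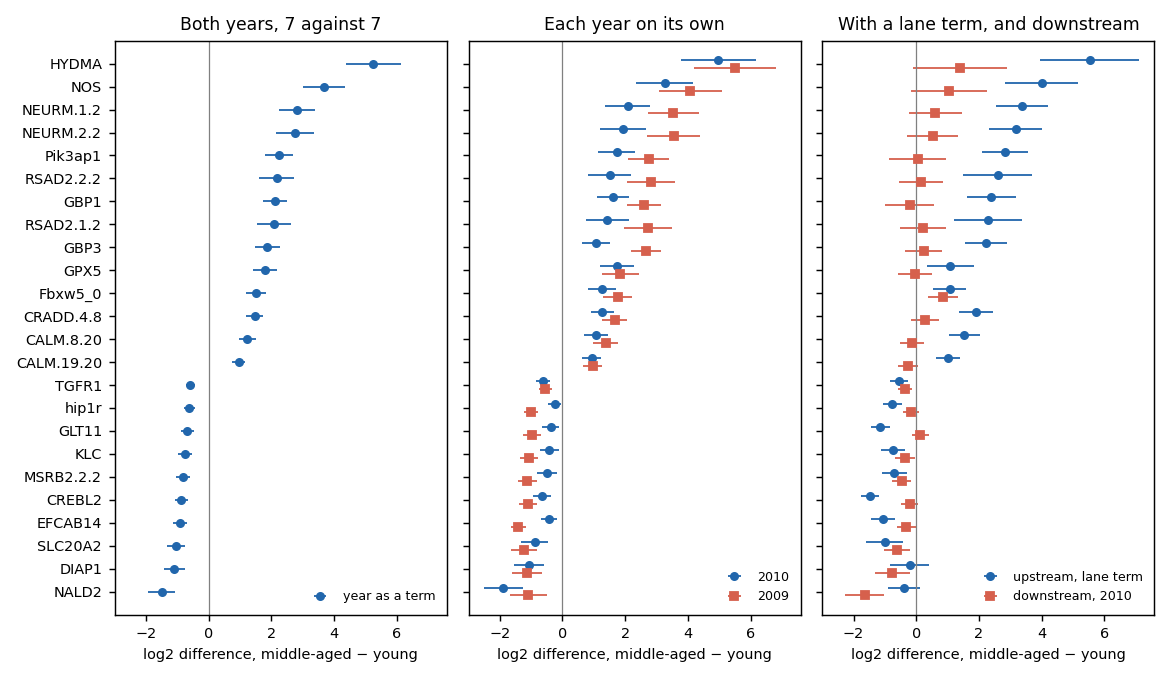
Log2 difference, middle-aged minus young, for 24 named contigs, with a standard error derived from the F statistic. Left is the fit over both years, and in the middle are 2010 and 2009 from one fit with 4 means. On the right are the fit with lane as a term and the downstream animals of 2010. The upstream differences of HYDMA, NOS and GBP1 lie on the same side of 0 in both years, and the downstream ones are smaller, from 1.39 for HYDMA to -0.22 for GBP1.

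Among the 23 gene lists, GBP1 was the single called contig. Members higher and lower at an unadjusted p under 0.05 are to be read against 7.92% and 8.11% of all contigs. Oxidative phosphorylation, the energy-yielding chain of mitochondria, had 10 of 27 higher and none lower, with a median log2 difference of 0.67. Its smallest p belonged to Cox7c, a subunit of cytochrome oxidase, at 21.0 ± 21.8 CPM in middle-aged and 5.55 ± 3.18 CPM in young animals (SD, n = 7 each; log2 difference 1.62 ± 0.60, edgeR adjusted p = 0.239, and 0.71 without middle-aged replicates 2 and 3). Of 81 zinc finger proteins, which bind nucleic acids, 18 were higher and 1 lower, with a median of 0.34. Of 43 cytosolic ribosomal protein contigs 32 had enough counts, 31 of them with an estimate above 0, a median of 0.73 and 1 higher at an unadjusted p under 0.05. Without middle-aged replicates 2 and 3 the medians were 0.11 for oxidative phosphorylation, 0.16 for zinc fingers and 0.16 for ribosomal proteins.

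The list of caspases and apoptosis inhibitors had 40 contigs. Of these, which carry out and restrain programmed cell death, 2 were higher and 6 lower. The 6 lower ones (DIAP1, XIAP.2.6, BIR7B, BIRC7.2.3, IAP3 and BIRC8) are named after inhibitors, as are 24 of the 40, with log2 differences from -1.10 to -0.60. DIAP1, at -1.10 ± 0.33, had -0.21 ± 0.62 with the lane term and -0.39 without young replicates 2, 5 and 7. The adjusted p-values of the 6 ran from 0.17 to 0.262. The other 32 contigs of the list did not pass at the unadjusted level, and the list median was 0.06, or 0.37 without young replicates 2, 5 and 7.

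The redox list had 2 higher and 2 lower of 17. GSTZ1 and GSTZ2, zeta-class glutathione transferases of tyrosine breakdown, differed by -1.31 ± 0.50 and -1.40 ± 0.47 (edgeR adjusted p = 0.247 and 0.205). Without young replicates 2, 5 and 7 these were -0.32 and -0.46. SODC.3.3, the most abundant superoxide dismutase contig, had 1419 to 5451 CPM (median 2506) in middle-aged and 779 to 2952 CPM (median 2228) in young animals, a log2 difference of 0.45 ± 0.38 (edgeR adjusted p = 0.545). SODC.1.3 and SODC.2.3 differed by 0.54 ± 0.61 and 0.60 ± 0.38 (edgeR adjusted p = 0.648 and 0.422). All 3 overlapped between the classes. Metal handling had 1 of 8 higher, the zinc transporter slc30a8.2.3 at 0.60 ± 0.21 (edgeR adjusted p = 0.224), and the iron store ferritin FRIS.2.2 differed by 0.71 ± 0.43 (edgeR adjusted p = 0.405).

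Tropomyosins and other muscle contigs had 4 lower and none higher of 18, with a median log2 difference of -1.11. Without young replicates 2, 5 and 7, the animals with the largest muscle sums, that median was 0.28. Collagen IV (CO4A1), a basement membrane protein, had 16.0 to 144 CPM (median 71.1) in middle-aged and 102 to 550 CPM (median 149) in young animals, a log2 difference of -1.45 ± 0.44 (edgeR adjusted p = 0.178), and -0.75 ± 0.74 with the lane term. KCP.2.2, named after a secreted modulator of bone morphogenetic protein signalling, stood at 81.8 ± 61.3 CPM in middle-aged and 12.8 ± 15.2 CPM in young animals (log2 difference 2.53 ± 0.95, edgeR adjusted p = 0.241, and 1.74 ± 1.84 with the lane term), with 0.313, 0.645 and 0.127 CPM in the same 3 young animals. BDEF, a big defensin contig added after its values were seen, stood at 189, 129 and 221 CPM in young replicates 2, 5 and 7, against 0.0225 to 0.158 CPM in the other 4 young and 0.0753 to 4.93 CPM in the 7 middle-aged animals. Its log2 difference was -6.33 ± 2.16 (edgeR adjusted p = 0.213), and 3.18 ± 1.13 without those 3 young animals. The part of these 3 libraries in the other list values was not tested beyond leaving them out.

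**Figure D4:**
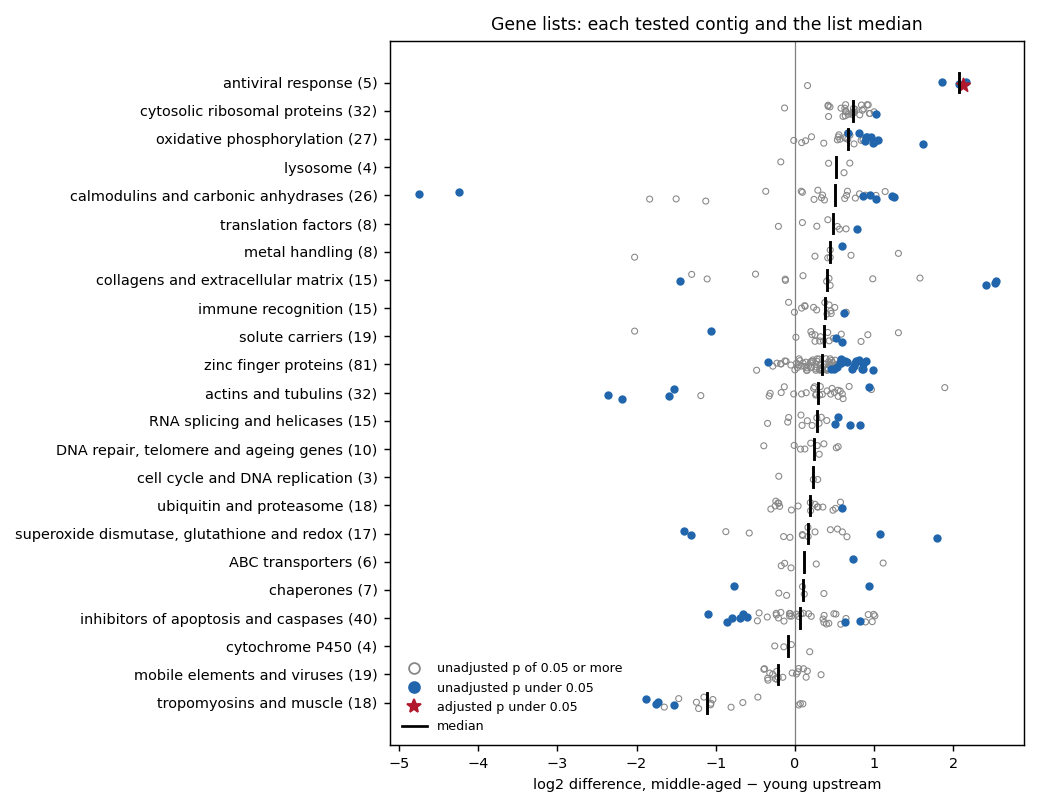
Log2 difference, middle-aged minus young upstream, of every tested contig in 23 gene lists (number tested in brackets), with the list median as a bar. Filled points have an unadjusted p under 0.05 and the star, GBP1, is the 1 contig with an adjusted p under 0.05; the list medians run from -1.11 for muscle to 2.08 for the antiviral list.

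The remaining lists had medians between -0.21 and 0.52. Solute carriers had 2 higher and 1 lower of 19, calmodulins and carbonic anhydrases 5 and 2 of 26, collagens and matrix 3 and 1 of 15, splicing and helicases 4 and 0 of 15, and chaperones 1 and 1 of 7. ABC transporters (6), immune recognition (15), translation factors (8) and ubiquitin and proteasome (18) had 1 higher and none lower each. DNA repair and telomere genes (10), cytochrome P450 (4), lysosome (4), cell cycle (3) and mobile elements (19) had none in either direction. Actins and tubulins, of the cytoskeleton, had 1 higher and 4 lower of 32, with a median of 0.29 that was 0.87 without young replicates 2, 5 and 7 and 1.29 with the lane term. Without those 3 animals TBB.7.7 had a log2 difference of 0.57 in place of -2.18, TBB.5.7 of 0.32 in place of -1.60 and TBA.2.3 of -0.08 in place of -1.53. The telomerase contigs TERT.2.4, TERT.3.4 and TERT.4.4 differed by 0.52 ± 0.27, 0.37 ± 0.35 and 0.55 ± 0.36.

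Within single years no contig was called (edgeR), with 3001 contigs at an unadjusted p under 0.05 in 2010 (3 middle-aged against 4 young) and 8084 in 2009 (4 against 3). The higher ones among these were 2.51% of all contigs in 2010 and 8.56% in 2009. All 94 were among them in both years, which choosing them on these animals favours. DESeq2 called 242 in 2010 and 1517 in 2009, and limma-voom 31 and 9785. HYDMA differed by 4.97 ± 1.21 in 2010 and 5.50 ± 1.31 in 2009, and NOS by 3.25 and 4.08. CRADD.4.8 differed by 1.28 and 1.66, GBP1 by 1.62 and 2.61, contig_08212 by 2.11 and 2.19, and contig_05744 by 2.64 and 3.27, in the same order. The smallest p-values of named contigs were those of HYDMA, Syt47 and RH20 in 2010 and of EFCAB14, GBP3 and BIR7B in 2009. BIR7B had -0.11 ± 0.22 in 2010 and -1.09 ± 0.21 in 2009, and GBP3 had 1.06 ± 0.44 and 2.66 ± 0.48.

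The difference between the years' age effects was called for no contig by edgeR (2190 at an unadjusted p under 0.05) and for 2 by DESeq2. Its smallest p-values among named contigs were those of BIR7B and of the lysozyme contigs LYS1.1.3 and LYS.2.2. LYS1.1.3 differed by -1.28 ± 0.79 in 2010 and 2.59 ± 0.84 in 2009, a gap of -3.86 ± 1.15 (unadjusted p = 0.00522, edgeR adjusted p = 0.93). LYS.2.2 had -1.32 ± 0.77 and 2.23 ± 0.80.

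Downstream, the same contrast could be made in 2010 only, with 3 middle-aged against 3 young animals, and again lanes differed, with middle-aged animals in lanes 3, 4 and 1 and young ones in lanes 4, 2 and 2. No contig was called by edgeR, DESeq2 or limma-voom, and edgeR gave 460 at an unadjusted p under 0.05. Of the 94 contigs higher upstream, 72 had a positive estimate downstream (76.6%, against 53.3% of all contigs), and 5 did so with an unadjusted p under 0.05, where 0.245% of all contigs were higher at that level. The median downstream estimate of the 94 was 0.34, against 2.48 upstream in 2010 alone. Each of the 94 had a smaller size than upstream over both years, as did 67.5% of all tested contigs. These comparisons favour upstream because the 94 were chosen there. All 6 lower contigs had a negative estimate downstream, as did 46.7% of all contigs.

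For contig_08212 the downstream difference was 1.11 ± 0.43 (unadjusted p = 0.0204), from 2.19, 2.42 and 0.635 CPM in the middle-aged animals of 2010 and 1.37, 0.714 and 0.419 CPM in the young ones. For contig_05744 it was 1.25 ± 0.58, from 3.77, 3.62 and 0.635 CPM and 2.05, 0.905 and 0.515 CPM. HYDMA had 9.5, 0.126 and 0.0810 CPM in middle-aged and 3.49, 0.149 and 0.241 CPM in young downstream animals, so the classes overlapped. NOS had 9.02, 0.408 and 0.203 CPM in middle-aged and 3.99, 0.415 and 0.495 CPM in young ones. Downstream estimates were 1.39 ± 1.5 for HYDMA, 1.05 ± 1.22 for NOS, 0.28 ± 0.45 for CRADD.4.8 and -0.22 ± 0.79 for GBP1, each with an edgeR adjusted p of 1. The upstream minus downstream difference set both years upstream against 2010 downstream. It was called for no contig by edgeR (905 at an unadjusted p under 0.05), for 1 by DESeq2 and for 13 by limma-voom. By edgeR this difference shows none of the 4 to differ between the sites. For GBP1, contig_05744 and CRADD.4.8 its unadjusted p was 0.0295, 0.0254 and 0.0446. Its smallest p-values among named contigs belonged to CALM.11.20 (2.11 ± 0.50), CPLX (1.08 ± 0.31) and PLMN (6.34 ± 1.81).

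**Figure D5:**
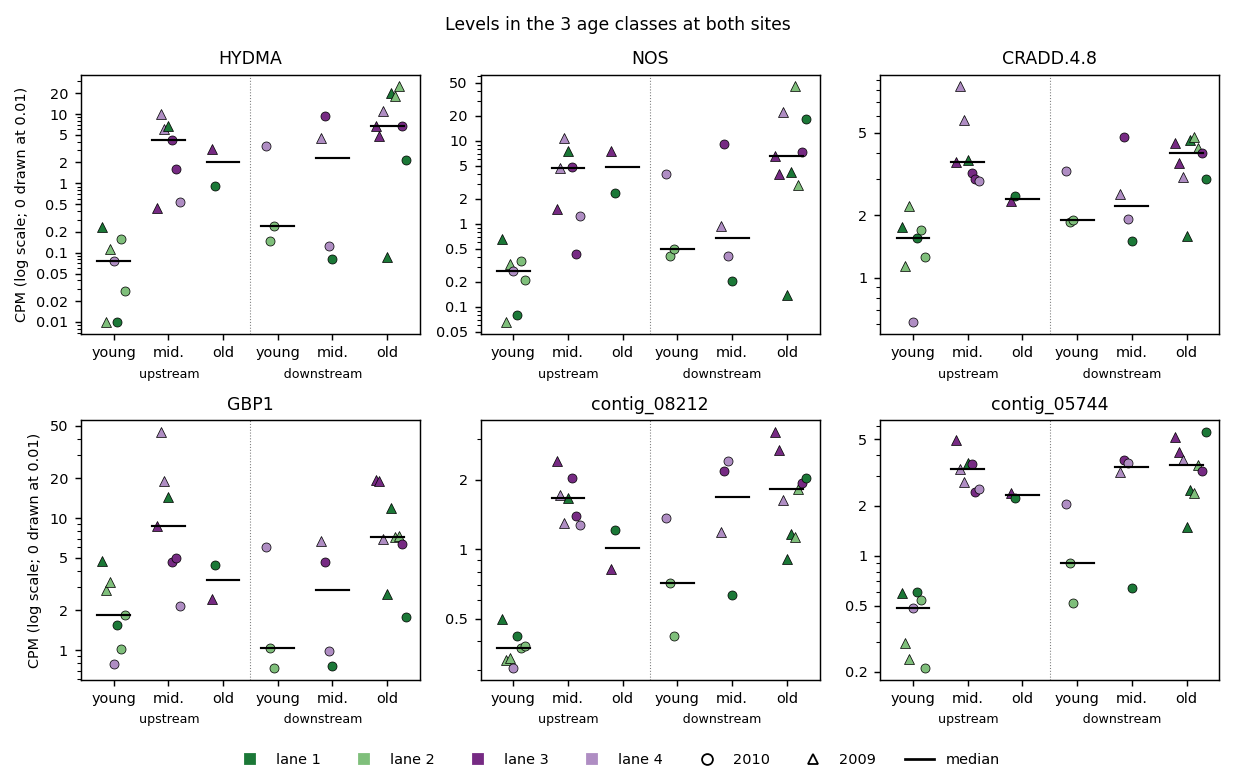
Level of 6 contigs in CPM (log axis; a level of 0 is drawn at 0.01) in young, middle-aged (mid.) and old animals, upstream left and downstream right of the dotted line, with 1 point per animal and the median as a line (colour, lane; shape, year). The 2 old upstream animals lie above all 7 young upstream animals for HYDMA, NOS, CRADD.4.8, contig_08212 and contig_05744, and within the young range for GBP1.

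The 2 old upstream animals, 1 of 2009 and 1 of 2010, allow a description only, and they are set against the same young animals. HYDMA was 3.17 and 0.917 CPM in them, NOS 7.44 and 2.33 CPM and CRADD.4.8 2.33 and 2.47 CPM, each above the highest young upstream animal. For contig_08212 they had 0.818 and 1.22 CPM, above all 7 young and below all 7 middle-aged animals, and for contig_05744 2.39 and 2.22 CPM, likewise between the classes. GBP1 had 2.42 and 4.40 CPM, inside the young range. The 9 old downstream animals spanned 0.0869 to 25.1 CPM for HYDMA and 0.139 to 45.2 CPM for NOS, the widest spans of the 6 groups for these 2 contigs in CPM.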

How the data were processed

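The authors deposited 1 table of unnormalized read counts, with a contig in each row and 32 library columns (0 of them unmatched to a sample), per the labels and the file header. Kidney RNA was extracted from single animals, labelled as separate individuals, and made into TruSeq v2 libraries, per the labels' protocols. The submitters' processing notes name BWA 0.7.12 and SAMtools 1.1. The assembler, the source of contig names and the counting of reads that match several contigs are not given in the sources used here, and no contig sequence or length was used, so levels are compared between animals and not between contigs.

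The test was edgeR's quasi-likelihood F test (edgeR 4.0.16 under R 4.3.3; filterByExpr with a minimum count of 10 and total of 15, TMM factors, robust glmQLFit, glmQLFTest, Benjamini-Hochberg adjustment over all contigs kept, threshold 0.05). The main fit had age class and year as terms. Values per year came from a fit with 4 means, and the downstream values from a fit of 21 animals with site-by-year means and an age term per site. Standard errors of edgeR log2 differences are the absolute difference divided by the square root of the F statistic. They were thus derived from the test and not estimated by the fit. The printed CPM use TMM factors over all 32 libraries. Among named contigs, those described are the 10 higher and 10 lower whose higher class averages 5 CPM or more (called ones first if 6 of its 7 animals exceed the other class's median, then by p), up to 3 of each list, the 3 of smallest p in each further comparison, the superoxide dismutase contigs and 2 unnamed ones in each direction. Lists were matched by contig name. Comparison, lists and rule were chosen with earlier results of these data known. The scripts were tested on simulated data. Alternatives were RLE factors, other filters, DESeq2 1.42.0, limma-voom (limma 3.58.1) with sample weights, other terms, other sets of animals, and leaving out each animal. Depth was 64.7 to 175 M counts, and limits for a count of 0 (3 counts) cover counting error only. One contig's result is not reported here.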

Additional observations from a re-analysis of the deposited data

Results flagged for a closer look

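Of 62 sets of 7 values checked for a single animal far from the others (30 contigs on the log2(CPM + 0.1) scale and the total counts, in each class), 5 were past Dixon's limit of 0.568, and chance gives about 1 in 20. VGA was lowest by far in middle-aged replicate 4, at 18.4 CPM, and highest by far in young replicate 4, at 250 CPM. Middle-aged replicate 4 is the 1 middle-aged library in lane 1, and young replicate 4 the 1 young library in lane 4. Young replicate 7 was lowest for SODC.1.3, at 0.324 CPM, and for SODC.3.3, at 779 CPM. It is also 1 of the 3 young libraries that stood apart on the first component. Young replicate 1 had the highest total, at 175 M counts.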

How the results depend on the processing

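The upstream count of 100 contigs was between 71 and 110 with RLE factors, no filter, a filter of 1 CPM in 7 libraries, no year term or the 2 old upstream animals added. DESeq2 called 1998, limma-voom 344, a fit of all 32 animals 38, and index sequence in place of year 10. A lane term and lanes 1 and 4 alone gave 0. Each index sequence, read from the library names, was used in a single year upstream, so that term also holds the year. The age classes differed in their shares of the index sequences, and the part of the index was not tested further. Added after the data were seen, the 21 middle-aged and young animals of both sites gave 353, leaving out young replicates 2, 5 and 7 gave 11, and leaving out middle-aged replicates 2 and 3 gave 3. Leaving out 1 animal gave 2 to 444. DESeq2 and limma-voom called 242 and 31 in 2010, 1517 and 9785 in 2009, and 1 and 13 for upstream minus downstream, where edgeR called 0; DESeq2 called 2 for the year difference. Without middle-aged replicate 1, 3716 were called in 2009 and 1 for the year difference, so leaving out 1 animal gave 0 to 3716 and 0 to 1 there. For 30 contigs followed through the 28 other fits, the sign of the log2 difference never changed. All but the superoxide dismutase contigs among them were picked as called or by p in the main fit, which favours this. Outside the 30, contigs that did change sign without young replicates 2, 5 and 7 included BDEF, TBB.7.7 and TBB.5.7. Calls were lost in 118 and gained in 42 of the 837 values. The cause of these changes was not tested. No paired analysis was possible because the labels number the animals as individuals and give the classes no shared replicate numbers.

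The effect of depth was not tested; low contigs rest on few counts, such as 0 to 41 for HYDMA in young libraries, and the biological variation common to all contigs was 48.7% with 7 animals per class. Lane and age class overlap in lanes 1 and 4 only, so in lanes 2 and 3 they cannot be told apart. How reads shared by contigs of one name were counted is not known.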
